A study of Rattus norvegicus with 2 samples.

Results

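Calcium pumps, exchangers and store channels keep the calcium concentration of a neuron low at rest and release it from internal stores on demand. Their mRNAs were compared between hippocampal synaptosomes and the total hippocampus of the rat. The 8 genes were Atp2b1, Atp2b2 and Atp2b3, Atp2a2, Slc8a1, Slc8a2 and Slc8a3, and Itpr1. Every probe set whose only gene symbol in the platform's annotation was one of these was taken, which gave 26 of the 8799 probe sets on the array and 8 of its 4737 named genes. The synaptosome sample held RNA of synaptosomes, sealed nerve terminals that carry a piece of the opposing postsynaptic membrane and are isolated biochemically, and the other sample held RNA of the hippocampus as a whole. Both came from Sprague Dawley rats at postnatal day 70 with no treatment given in the labels, and the study asked which mRNAs are enriched at the synapse. The number of animals behind each sample is not given in the sources used here. Each sample was hybridised to 1 Affymetrix rat array, so every value below is a single measurement, the number of arrays limits the precision, and no test between synaptosomes and hippocampus was possible.

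The plasma membrane calcium pumps, or PMCAs, use ATP and calmodulin to push calcium out of the cell with high affinity, and presynaptic terminals and spines both hold them. The sodium-calcium exchangers, or NCX proteins, carry larger amounts of calcium outward at lower affinity, driven by the sodium gradient. The pump of the endoplasmic reticulum, or SERCA, fills the internal store, and the inositol trisphosphate receptor, a channel of that store, empties it when metabotropic receptors activate phospholipase C.

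The pump mRNAs read higher in synaptosomes in most of the probe sets above the floor on both arrays. The exchanger Slc8a1 read lower on 2 of its 5 probe sets, at signals too dim to fix the direction. The store channel Itpr1 was divided between its probe sets. Signals are the deposited intensities, in arbitrary units. Those under a floor of 846, the median of all values, were set to it. The log2 ratio is synaptosome minus hippocampus, centred so that the median over all 4370 probe sets past a filter on dim signals is 0. Of the 26 probe sets, 16 passed the filter, 1 had a ratio but lay under it, and 9 were at the floor on both arrays. Of the 16, 7 were 2-fold higher or more in synaptosomes, as were 19.1% of all filtered probe sets, and 2 were 2-fold lower or more, as were 14.9%. Their median log2 ratio was 0.94, against 0.00 over all filtered probe sets. Positive ratios were found in 12 of the 16, and in 50% of all filtered probe sets by the centring. Without the centring 14.8% of all filtered probe sets were 2-fold higher and 20.3% lower, while the member counts stayed at 7 and 2. A probe set that passes through 1 bright array has to differ, and 3 of the 16 passed through the synaptosome array alone. Of the other 13, above the floor on both arrays, 5 were 2-fold higher or more and 2 lower, beside 13.5% and 11% of the 3392 such probe sets overall. With the higher floor of 2798.5, 4 of 12 member probe sets were 2-fold higher or more and 0 lower, beside 9.65% and 8.94% of all probe sets.

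**Figure D1:**
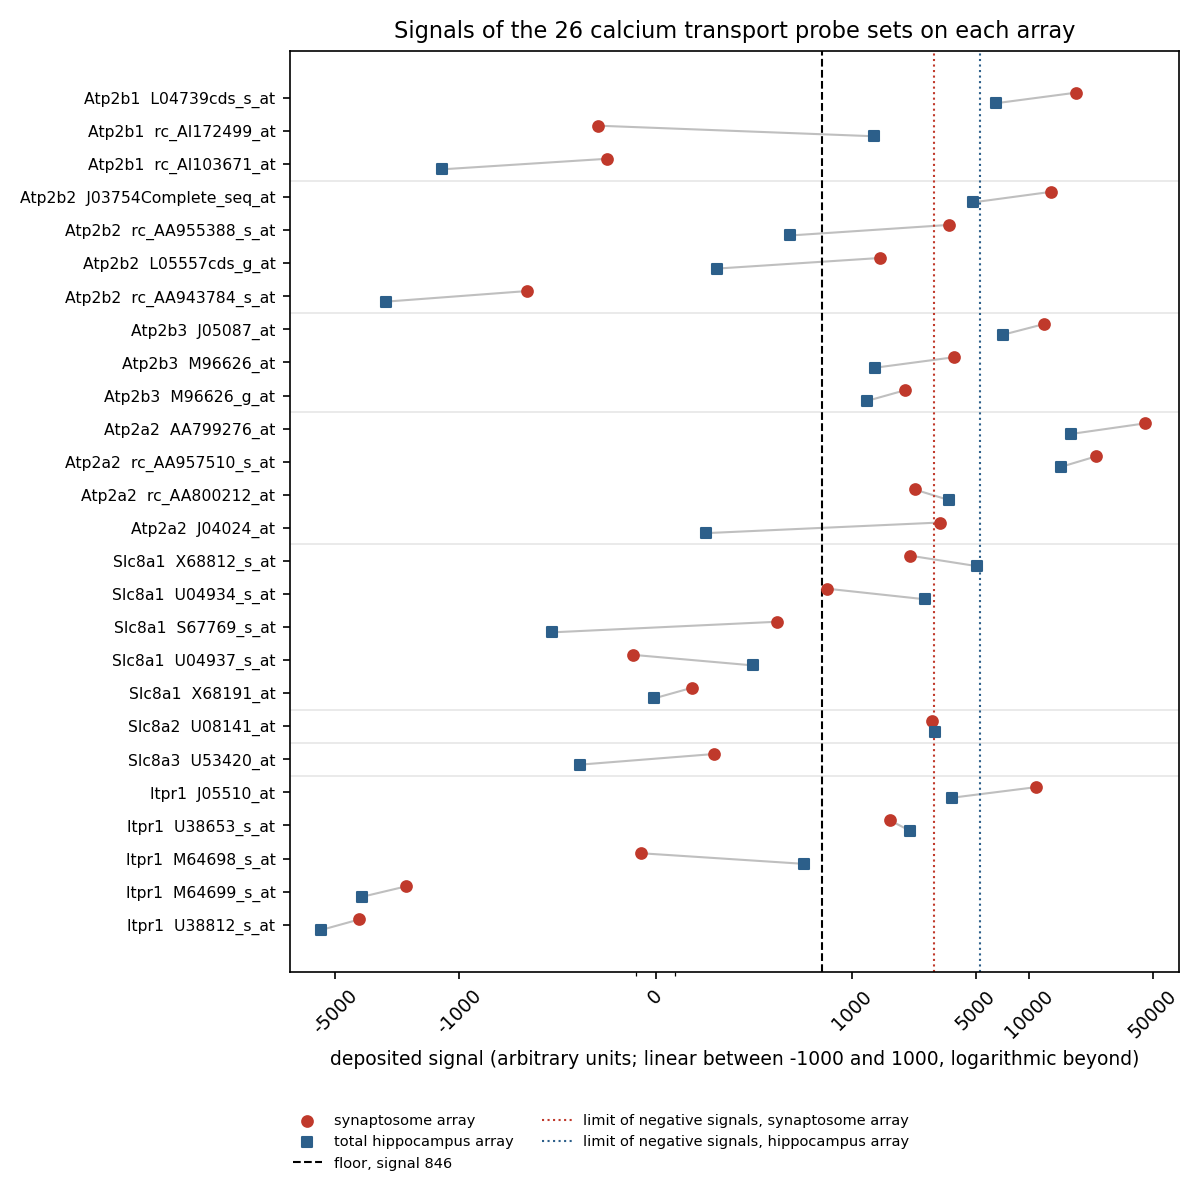
Deposited signal (arbitrary units, symmetric log axis) of each of the 26 probe sets on the synaptosome array (circles) and the total hippocampus array (squares). The dashed line is the floor of 846 and the dotted lines are the limits of negative signals, 2912.6 for synaptosomes and 5280.25 for hippocampus. On both arrays 4 probe sets lie above the line, all of them of pumps.

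On this array design a signal can be negative, and the spread of the negative values shows how far a reading can stray where there is little specific signal. The size that 95% of them stayed within, called the limit of negative signals here, was 2912.6 for synaptosomes and 5280.25 for the hippocampus. Only 4 member probe sets exceeded it on both arrays, 1 of Atp2b1, 1 of Atp2b3 and 2 of Atp2a2. All 4 had positive ratios, from 0.83 to 1.68, and 2 were 2-fold higher or more. Of all 1185 non-control probe sets past these limits, 42.1% had positive ratios, 6.75% were 2-fold higher or more and 12.4% were 2-fold lower or more, with a median of -0.16.

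Atp2b1 encodes PMCA1, the pump found in nearly all cell types. Its probe set L04739cds_s_at read 18493 in synaptosomes and 6512 in the hippocampus. The reading was higher in synaptosomes by its rank on the array too, at percentile 95.3 in synaptosomes and 87.9 in the hippocampus. The log2 ratio was 1.68, or 3.2-fold higher with the centring and 2.84 as the plain quotient of the signals. The other sets of Atp2b1 did not repeat this. The probe set rc_AI172499_at read -292 in synaptosomes and 1333 in the hippocampus, and did not pass the filter, and its bound on the log2 ratio was -0.49. The probe set rc_AI103671_at read -245 in synaptosomes and -1249 in the hippocampus, under the floor on both arrays, so it gave neither presence nor a difference.

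Atp2b2 encodes PMCA2, a fast pump concentrated in neurons and sensory hair cells. Its probe set J03754Complete_seq_at read 13307 in synaptosomes and 4804 in the hippocampus, a log2 ratio of 1.64 or 3.12-fold higher. The probe set rc_AA955388_s_at read 3530 in synaptosomes and 684 in the hippocampus, which is under the floor, and the fold was at least 4.7. With the floor of 2798.5 its log2 ratio was 0.42, no longer 2-fold. The probe set L05557cds_g_at read 1440 in synaptosomes and 314 in the hippocampus, at least 1.92-fold higher. All 3 were higher on the synaptosome array, and the synaptosome readings of the first and second exceeded the limit of negative signals, while no hippocampus reading did. With a hippocampus reading this low, "at least" takes both signals at face value and is no guaranteed minimum. The remaining set, rc_AA943784_s_at, read -653 in synaptosomes and -2581 in the hippocampus.

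Atp2b3 encodes PMCA3, a fast pump largely restricted to brain. It was one of the genes whose every probe set gave a ratio. The probe set J05087_at read 12115 in synaptosomes and 7123 in the hippocampus, a log2 ratio of 0.94 or 1.91-fold higher. The probe sets M96626_at and M96626_g_at, designed on one source sequence, read 3780 and 1988 in synaptosomes against 1340 and 1216 in the hippocampus. Their log2 ratios were 1.67 and 0.88, so all 3 sets were higher in synaptosomes and 1 passed 2-fold. With the floor of 2798.5 the ratio of M96626_at was 0.52.

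Across the 3 PMCA genes, 7 of 10 probe sets passed the filter. Of these, 5 were above the floor on both arrays, with ratios from 0.88 to 1.68. Among the 5, 3 were 2-fold higher or more, beside 13.5% of all such probe sets. The other 2 of the 7, both of Atp2b2, passed through the synaptosome array alone, so their direction was fixed by the filter. L05557cds_g_at of Atp2b2 was kept at a mean log2 level of 10.11. The Atp2b1 set rc_AI172499_at, with a bound of -0.49, fell just under the limit of 10.07 at 10.05. When a gene had more than 1 filtered probe set, as 658 genes did, its log2 ratios scattered with an SD of 0.90. This scatter is the only error these arrays give, and it holds nothing of animals, preparations or amplification. The pump genes share much of their coding sequence, and whether a probe set named for one also read another was not tested.

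**Figure D2:**
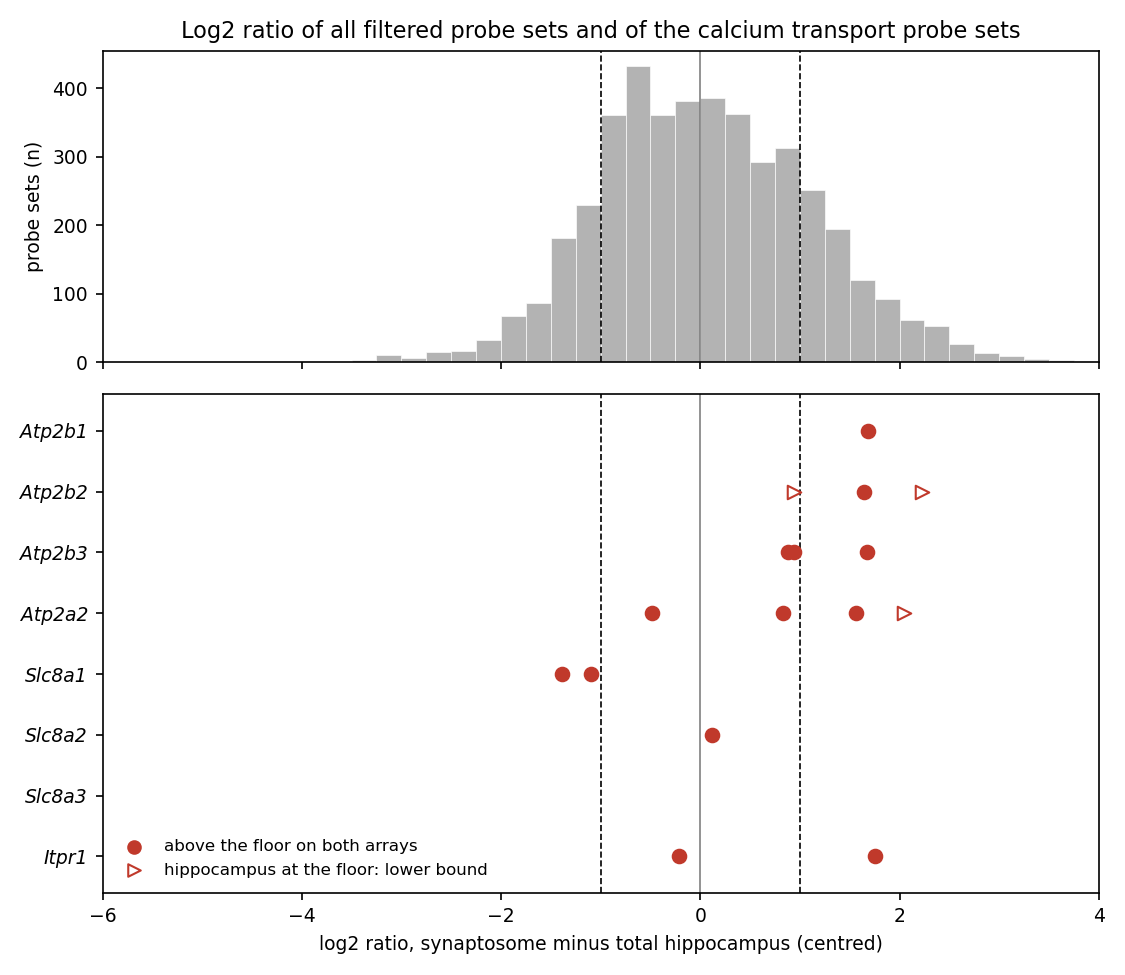
Top, number of probe sets by centred log2 ratio, synaptosome minus total hippocampus, for all 4370 filtered probe sets. Bottom, the 16 filtered member probe sets by gene; open arrows mark those at the floor in the hippocampus, and the dashed lines are 2-fold. The filled PMCA points lie between 0.88 and 1.68, and the 2 Slc8a1 sets at -1.10 and -1.39.

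Atp2a2 encodes SERCA2, the calcium pump of the endoplasmic reticulum in most tissues, including neurons. Its probe set AA799276_at read 45357 in synaptosomes and 17325 in the hippocampus, a log2 ratio of 1.56 or 2.95-fold higher. The probe set rc_AA957510_s_at read 23860 in synaptosomes and 15058 in the hippocampus, a log2 ratio of 0.83 or 1.78-fold higher. Both sets lay above the limit of negative signals on both arrays. The probe set J04024_at read 3117 in synaptosomes and 257 in the hippocampus, at least 4.15-fold higher against the floor. With the floor of 2798.5 its ratio was 0.24. The probe set rc_AA800212_at went the other way with 2251 in synaptosomes and 3521 in the hippocampus, a log2 ratio of -0.48. The Atp2a2 sets thus spanned 2.53 on the log2 scale, the widest range of any of these genes, and 3 of 4 were higher. J04024_at passed the filter through the synaptosome array alone, so its direction was fixed and its end of the span is a bound. The 3 sets above the floor on both arrays ran from -0.48 to 1.56.

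Slc8a1 encodes NCX1, the exchanger of heart that is also expressed in brain. It was the only member with probe sets at least 2-fold lower in synaptosomes. The probe set X68812_s_at read 2113 in synaptosomes and 5091 in the hippocampus, a log2 ratio of -1.10 or 2.14-fold lower. The probe set U04934_s_at read 872 in synaptosomes and 2580 in the hippocampus, a log2 ratio of -1.39 or 2.63-fold lower. Both sets pointed the same way, but all 4 readings lay within the limits of negative signals, so the direction and the sizes are uncertain. The ratio of X68812_s_at was -0.78 with the floor of 2798.5, under which U04934_s_at had none. The other 3 sets were at the floor on both arrays and did not share a direction. S67769_s_at read 617 in synaptosomes and -526 in the hippocampus, and X68191_at read 183 in synaptosomes and -9 in the hippocampus. U04937_s_at read -116 in synaptosomes and 496 in the hippocampus.

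Slc8a2 encodes NCX2, an exchanger found mainly in brain. Its only probe set, U08141_at, read 2827 in synaptosomes and 2927 in the hippocampus, at percentile 75.6 of the synaptosome array and 75.5 of the hippocampus array. The log2 ratio of 0.12 with centring was -0.05 without it. Slc8a3 encodes NCX3, an exchanger of brain and skeletal muscle. Its only probe set, U53420_at, read 296 in synaptosomes and -383 in the hippocampus, so neither presence nor a difference was detectable. Above the floor on both arrays, 4 of 8 pump probe sets and 0 of 3 exchanger sets were 2-fold higher or more, beside the 13.5% of all such sets. With the floor of 2798.5, 3 of 9 pump sets and 0 of 2 exchanger sets were, beside 9.65%. No test of the difference between pumps and exchangers was possible with 1 array per group.

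Itpr1 encodes the type 1 inositol trisphosphate receptor, the main form of this store channel in neurons, whose mRNA has been found in dendrites. Its probe set J05510_at read 10968 in synaptosomes and 3677 in the hippocampus, a log2 ratio of 1.75 or 3.36-fold higher. The hippocampus reading lay within the limit of negative signals, and with the floor at that limit, 5280.25, the log2 ratio was 1.15. The probe set U38653_s_at read 1627 in synaptosomes and 2122 in the hippocampus, a log2 ratio of -0.21, with both readings within the limits. These sets lay 1.96 apart on the log2 scale. The other 3 sets gave no ratio. M64698_s_at read -73 in synaptosomes and 753 in the hippocampus, M64699_s_at read -1984 in synaptosomes and -3544 in the hippocampus, and U38812_s_at read -3649 in synaptosomes and -6007 in the hippocampus. The higher reading of Itpr1 therefore rested on 1 of 5 probe sets.

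Of 15 other genes of the same families, 8 were on the array and 6 passed the filter, with a median log2 ratio of 0.41. Of the 6, 2 were 2-fold higher or more, beside 19.1% of all filtered genes. Here each gene is represented by the filtered probe set with the highest mean level. Atp2c1, the calcium and manganese pump of the Golgi, read 1969 in synaptosomes and 248 in the hippocampus, at least 2.62-fold higher at face value. Atp2c1 passed the filter through the synaptosome array alone, so its direction was fixed, and both readings lay within the limits of negative signals. Atp2a3, or SERCA3, read 8368 in synaptosomes and 4494 in the hippocampus, 2.1-fold higher. Its hippocampus reading lay within the limit of negative signals. Atp2b4, or PMCA4, read 398 in synaptosomes and 1616 in the hippocampus, at least 1.7-fold lower at face value. It passed the filter through the hippocampus array alone, and both readings lay within the limits of negative signals. The receptor gene Itpr3 had a log2 ratio of -0.44, and Slc24a2, a potassium-dependent exchanger of neurons, one of 0.44.

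Genes that make, remove or answer the store signal were mixed. Of 13 genes of inositol trisphosphate turnover on the array 9 passed the filter, with a median of -0.32. Of the 9, 2 were at least 2-fold higher, beside 19.1% of all filtered genes. Pip5k1c, which makes the lipid that phospholipase C cleaves, read 11251 in synaptosomes and 3068 in the hippocampus, 4.13-fold higher. Itpka, the neuronal kinase that phosphorylates inositol trisphosphate and binds actin in spines, read 8685 in synaptosomes and 2491 in the hippocampus, 3.92-fold higher. Each rested on 1 probe set, and their hippocampus signals lay within the limit of negative signals. Plcb1, a phospholipase C driven by metabotropic receptors, had a log2 ratio of 0.87. Among 4 genes of store-operated entry and mitochondrial uptake on the array, 3 passed the filter. Of these Trpc4, a cation channel, was 2.07-fold higher at 2410 in synaptosomes and 1307 in the hippocampus, both within the limits of negative signals. Trpc1 had a log2 ratio of 0.87, with both readings also within these limits. Vdac1, which passed through the hippocampus array alone, had a bound of -0.81.

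Partners and regulators of the pumps and channels gave 13 filtered genes of 18 on the array, with a median of 0.30. Canx, the endoplasmic reticulum chaperone calnexin, read 34290 in synaptosomes and 13187 in the hippocampus, 2.93-fold higher. Pdzd11, a small PDZ protein that binds PMCA tails, read 1108 in synaptosomes and 3002 in the hippocampus, 2.41-fold lower. Fkbp4, an immunophilin, read 789 in synaptosomes and 2396 in the hippocampus, at least 2.52-fold lower at face value. This set passed the filter through the hippocampus array alone, so its direction was fixed. Another Fkbp4 set, above the floor on both arrays but under the filter, had a log2 ratio of 0.24. These readings of Pdzd11 and Fkbp4 all lay within the limits of negative signals. Nptn, or neuroplastin, a subunit of PMCA complexes, had a log2 ratio of 0.58. Over all 4 lists, 6 of 31 filtered genes were 2-fold higher or more and 2 lower, beside 19.1% and 14.3% of all 2735 filtered genes, so the count of higher genes was close to the background. Without centring 4 of the 31 were higher and 3 lower, beside 14.8% and 20.3% of all filtered probe sets. The shares over all genes were not computed without centring. The median of the 31 was 0.37, against 0.00 over all filtered genes.

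**Figure D3:**
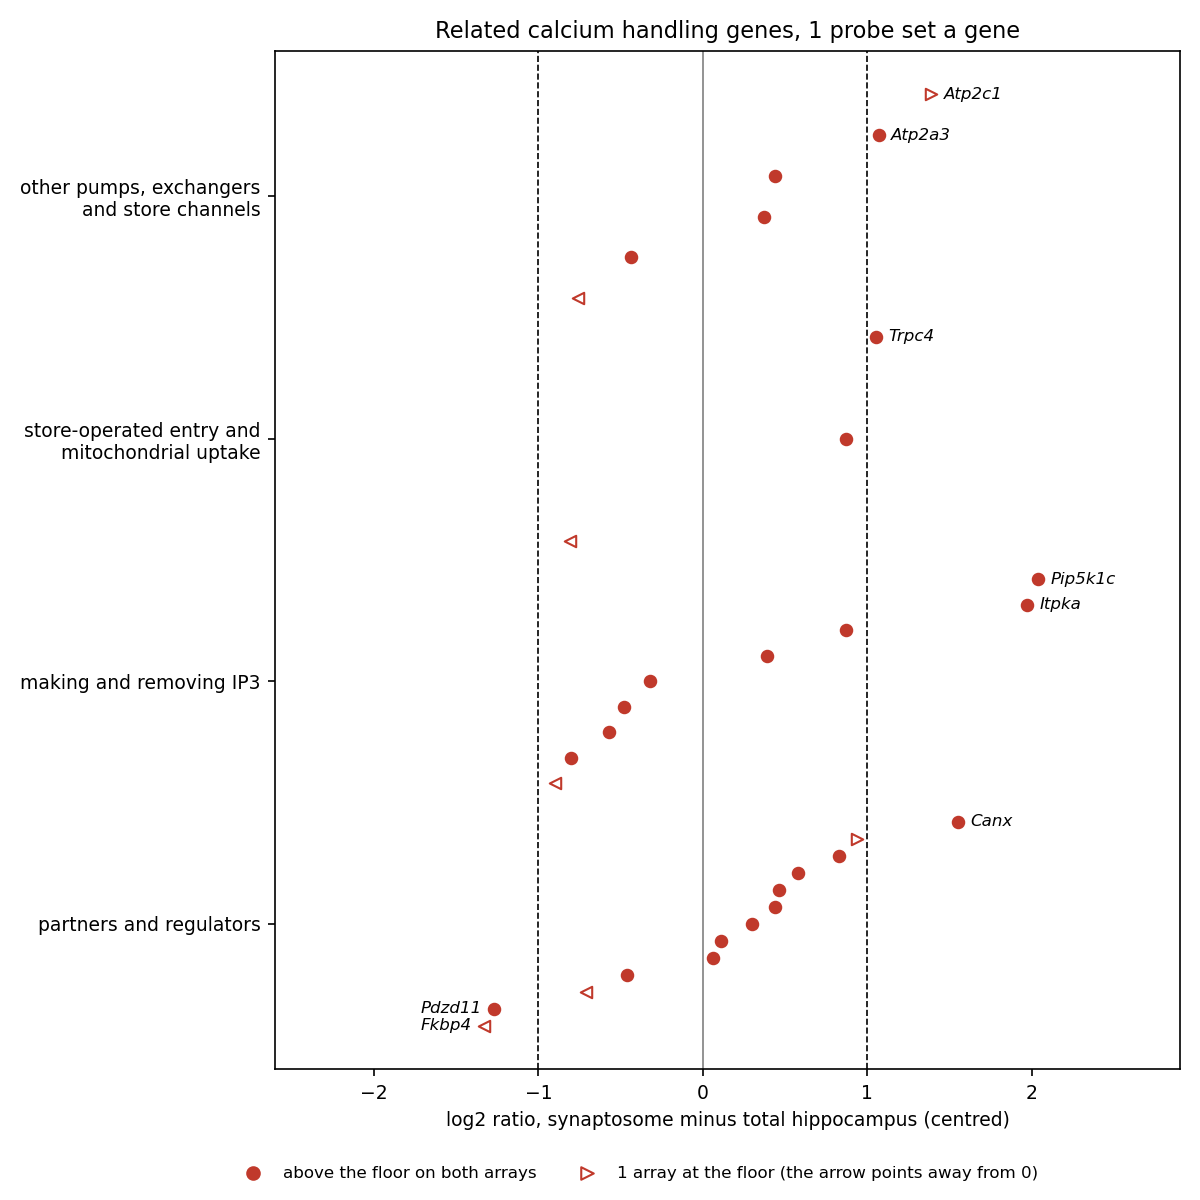
Centred log2 ratio, synaptosome minus total hippocampus, of the 31 filtered genes of 4 related lists, 1 point a gene. Open arrows have 1 array at the floor and the dashed lines are 2-fold; Pip5k1c and Itpka lie farthest to the right at 2.04 and 1.97, and Fkbp4 and Pdzd11 farthest to the left at -1.33 and -1.27.

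Among other transporters of the same ions, the sodium pump list had 3 filtered genes with a median log2 ratio of 0.39, and Atp1b3 was 2.53-fold higher. The Atp1b3 reading of 3490 in the hippocampus lay within the limit of negative signals. The list of voltage-gated calcium channels had 11 filtered genes with a median of -0.03. Of these, 3 were 2-fold higher or more and 2 lower, beside 19.1% and 14.3% of all filtered genes. Both lower genes, Cacna1g and Cacnb4, were among 4 that passed the filter through the hippocampus array alone, so their direction was fixed. Whether the members differ from these lists was not tested.

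Markers of cell types differed between the samples. Of 11 filtered neuronal markers 9 had positive ratios, with a median of 0.69 and a summed signal of 186540 in synaptosomes and 210556 in the hippocampus, and Slc17a7 was at the floor on both arrays. Of all filtered probe sets 50% had positive ratios, and the median over all filtered genes was 0.00. The lower sum came from Snap25, at 32782 in synaptosomes and 109086 in the hippocampus. Each of its sets was lower, with log2 ratios of -1.56, -1.79, -1.20 and -0.74. The other negative marker was Camk2a, at -0.22, with 0.15 on another set. Without Snap25, left out after its values were seen, the sums were 153758 in synaptosomes and 101470 in the hippocampus. Of 6 oligodendrocyte markers 5 had negative ratios, with a median of -0.75 and a summed signal of 29296 in synaptosomes and 49584 in the hippocampus. The list was not uniform. Mbp, Mobp and Mog had log2 ratios of -2.23, -1.83 and -1.32, while Mag and Mal were near 0 at -0.08 and -0.19. Another filtered Mag set had 0.93, and Cnp was 2.67-fold higher. The 7 astrocyte markers had a median of -0.17, with sums of 208142 in synaptosomes and 218382 in the hippocampus. The list of microglia and vessel markers was divided. Of the microglial genes, Aif1 had log2 ratios of 0.98 and 2.74 with its 2 filtered sets and Ctss one of -0.03. Of the blood and vessel genes, Hbb had a ratio of -2.20, Kdr a bound of -2.03, Flt1 a ratio of -1.21 and Pecam1 one of 0.38. Over all 6 genes the median was -0.62, with sums of 76414 in synaptosomes and 117593 in the hippocampus, and Itgam and Vwf were at the floor on both arrays. Gabra6, a marker of cerebellar granule cells, read 2030 in synaptosomes and 459 in the hippocampus. Both readings lay within the limits of negative signals, and the hippocampus reading was under the floor. Ttr, a marker of choroid plexus, went the other way, with log2 ratios of -0.57 and -2.41 with its 2 filtered sets. In bulk RNA, more cells or processes of a type cannot be told apart from more of an mRNA per cell. As a sign of RNA quality, the signal at the 3′ end of beta-actin was 7.79 times that at the 5′ end in synaptosomes and 4.96 times in the hippocampus. For GAPDH the same quotient was 1.07 in synaptosomes and 1.05 in the hippocampus. The part of cell makeup and of RNA quality in the member ratios was not tested.

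**Figure D4:**
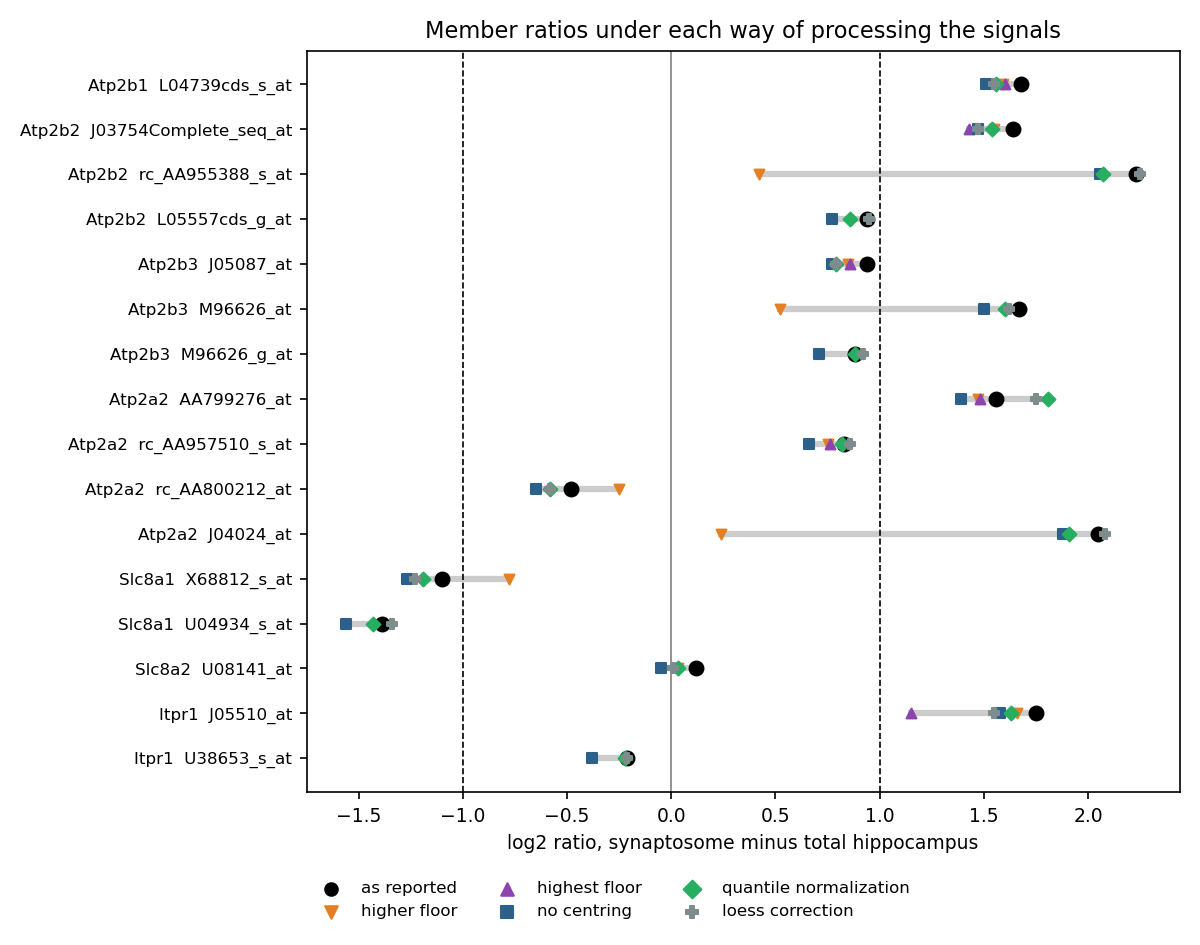
Log2 ratio, synaptosome minus total hippocampus, of the 16 filtered member probe sets under each way of processing the signals; grey bars span the lowest to the highest value. The 3 sets with the widest bars, of Atp2b2, Atp2b3 and Atp2a2, drop to 0.42, 0.52 and 0.24 with the floor of 2798.5.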

How the data were processed

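The values are the intensity of each probe set as the authors deposited it, in whole numbers on a linear scale, for 1 synaptosome and 1 hippocampus array. Per the labels' protocols, column-purified total RNA was amplified with the SMART cDNA kit from an oligo(dT) primer with a T7 promoter and transcribed into biotin-labelled cRNA. How the scans became signals is not given in the sources used here. Mean signals after trimming 2% at each end were 2504 for synaptosomes and 2505 for hippocampus, so no scaling was added. At or below 0 were 25.2% of non-control synaptosome values and 31.4% of hippocampus values.

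Signals under 846 were set to it, log2 was taken and the median ratio, -0.17, was subtracted, which multiplies a higher fold by 1.13. The filter kept probe sets whose mean log2 level was at least 10.07. Genes came from the platform's annotation, with symbols updated by gene identifier from RefSeq (GRCr8). With 1 array per group no p-value was computed. All member probe sets are named, and from each related list the genes at least 2-fold higher or lower, at most 6. Atp2b4, Itpr3, Slc24a2, Plcb1, Trpc1, Vdac1, Nptn, Atp1b3, Cacna1g, Cacnb4, Gabra6, Ttr and the named cell type markers were named after their values were seen. The members and lists were chosen with earlier results of these data known. Python 3.11.15, NumPy 2.4.6, pandas 2.3.3, statsmodels 0.14.6 and matplotlib 3.10.9 were used, and the calculation was tested on simulated data.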

Additional observations from a re-analysis of the deposited data

How the results depend on the processing

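With the floor at 2798.5, 4 of 12 member probe sets were at least 2-fold higher and 0 lower, beside 9.65% and 8.94% of all probe sets. Of 18 related genes 3 were higher and 0 lower. With the floor at 5280.25, 4 of 6 member probe sets were at least 2-fold higher and 0 lower, beside 7.79% and 10% of all probe sets. Of these 4, 2 (J03754Complete_seq_at of Atp2b2 and J05510_at of Itpr1) were under this floor in the hippocampus, so they had to differ. At that floor 2 of 15 related genes were higher and 0 lower. The shares over all genes were not computed at either raised floor. Fewer probe sets lie above a higher floor by construction. Among sets without a suffix letter 5 of 8 were higher and 0 lower, since both Slc8a1 sets carry a suffix. The share over all sets without a suffix letter was not computed. Of the 5, J04024_at of Atp2a2 passed the filter through the synaptosome array alone, so it had to be higher. No centring, quantile normalization, loess correction and no filter each left 7 member sets higher and 2 lower. The median of the members lay between 0.63 and 1.60 over 8 alternatives, 1 of them, the sets above the floor on both arrays, chosen after seeing the data. No ratio of a called probe set changed sign in any that gave it a value. Where only 1 array was above the floor, the sign was largely fixed, so its stability says little. This held for rc_AA955388_s_at and J04024_at throughout. With the floor of 2798.5 it also held for M96626_at and X68812_s_at, and with 5280.25 for J03754Complete_seq_at and J05510_at. Without centring, 14.8% of all filtered probe sets were at least 2-fold higher and 20.3% lower. No paired analysis was possible because each group has 1 array, and for the same reason no replicate could be left out.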

Other observations

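Several partner genes had probe sets that differed among themselves, chosen here after their values were seen. The log2 ratios of Canx were 1.55, 1.39 and 2.65 on 3 probe sets, and -0.35 on another. Homer1, which links metabotropic receptors to the inositol trisphosphate receptor, had ratios of 0.11, 0.33, 0.57 and 1.23 with its 4 filtered sets. Fkbp1a, a small immunophilin that binds calcium release channels, had ratios of 0.46 and 0.50 with 2 sets and -0.43 and -1.32 with the others. Pdia3, a thiol oxidoreductase of the endoplasmic reticulum, had a ratio of 0.83 with 1 set and a bound of -1.05 with another. Ryr2, a ryanodine receptor, read 171 in synaptosomes and 1063 in the hippocampus and did not pass the filter. Phospholamban, encoded by Pln and a regulator of SERCA2 in heart, read 65 in synaptosomes and 6 in the hippocampus, at the floor on both arrays.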
